A study of Oryctolagus cuniculus with 6 samples.

Results

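The miR-30 family is a group of small regulatory RNAs, and 8 of its mature strands were examined in extracellular vesicles from rabbit seminal plasma, out of 577 miRNAs in the deposited table. The 8 are the 5p strands of miR-30a, miR-30b, miR-30c, miR-30d and miR-30e and the 3p strands of members a, d and e. They were picked by name, but the family was selected on measured values: lower 5p levels of the a, d and e members in the Sub-fertile libraries of this same study, next to opposite arms and relatives that did not share the difference. The contrast between the groups is therefore described here with no p for any member, and it supports nothing further.

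A microRNA (miRNA) is a short RNA that is cut from a hairpin precursor and guides a silencing complex to target transcripts. A hairpin can yield a strand from each arm, named 5p and 3p, of which often 1 is kept and the other is mostly degraded. Target choice rests mainly on the seed, a short stretch near the 5′ end. The 5p strands of all miR-30 members carry the same seed. In their remaining bases miR-30a, miR-30d and miR-30e are close to each other, and miR-30b and miR-30c form a second pair. The 3p strands have a different seed from the 5p strands. The family is abundant in kidney and other epithelial tissues. In human cells miR-30 has been shown to repress SNAI1, a regulator of the change from epithelial to mesenchymal state, and BECN1, a component of autophagy.

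The males were sexually mature bucks of a California x New Zealand white cross, aged 10 to 12 months, screened for semen quality over 8 ejaculates in 1 month. Of 14 males, 3 of high quality formed the Fertile group and 3 of low quality the Sub-fertile group. No treatment or genetic change was involved, and no mating record was used here. Each of the 3 replicates per group was prepared from 2.5 mL of seminal plasma, and the labels call them biological replicates without saying whether each is 1 male. Values are on the deposited scale, a signal the authors named CPM, counts scaled to library depth, here with an extra scaling factor per library. Since a mature miRNA gives 1 read regardless of its length, levels of strands are compared without a length correction, although capture in library preparation can differ between strands.

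Libraries held from 129387 to 772619 counts, and Sub-fertile replicates 1 and 2 were the shallowest. A single count was worth 1.33 units in the deepest library and 6.24 units in the shallowest. Sub-fertile replicate 1 stood apart: over the 234 tested miRNAs its log2 profile correlated with the other 5 libraries at r = 0.914 to 0.921, where all other pairs reached 0.946 to 0.981 (across miRNAs, which are not independent replicates). Its summed level of 6 miRNAs of testis and multiciliated cells was 17041, against 1752 to 3304 in the other 5 libraries. The labels give no cell of origin for the vesicles. Of 9 listed epithelial miRNAs the table holds 6, led by miR-200c-3p, and none of these 6 was at 0 in all libraries.

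The genes of the family fall into 3 neighbourhoods, by a RefSeq annotation (mOryCun1.1) of another build than the study's OryCun2.0, used for names and adjacency only. It holds 6 miR-30 hairpin genes, which cover all 8 members. MIR30A is adjacent to MIR30C-2, MIR30B is adjacent to MIR30D, and MIR30C-1 and MIR30E are adjacent and both lie within NFYC, the gene of a transcription factor subunit. Each neighbourhood thus pairs 1 member of the a, d and e branch with 1 of the b and c branch, and mature miR-30c-5p can come from either of its 2 genes.

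miR-30d-5p was the most abundant member. In human melanoma miR-30d and miR-30b have been shown to repress GALNT7, a glycosyltransferase. Its level was 69139, 72815 and 68438 in Fertile replicates 1 to 3, and 28406, 42185 and 41002 in Sub-fertile replicates 1 to 3. All Sub-fertile libraries lay below all Fertile ones. It ranked 3rd among all miRNAs in every Fertile library and ranked 12th, 7th and 10th in Sub-fertile replicates 1, 2 and 3. The group means were 70131 ± 2351 and 37198 ± 7637 (SD, n = 3 each).

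miR-30a-5p, the strand behind most work on SNAI1 and BECN1, came next. It stood at 43905, 40102 and 40398 in the Fertile libraries and at 14674, 19577 and 17484 in the Sub-fertile ones. The groups were far apart relative to their spread, at 41468 ± 2115 and 17245 ± 2460 (SD, n = 3 each). Its rank went from 8th or 9th in Fertile to 16th, 16th and 19th in Sub-fertile libraries.

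miR-30e-5p, which in human cancer cells represses the SUMO-conjugating enzyme UBC9, followed. Its Fertile levels were 13824, 11939 and 14027, and its Sub-fertile levels 3840, 6139 and 7654. The groups did not overlap, but the Sub-fertile libraries differed more among themselves than for the other members. Their coefficient of variation (SD over mean) was 32.7%, against 8.68% in Fertile.

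The other pair of 5p strands was far less abundant and had similar levels in both groups. miR-30c-5p, which represses the matrix protein CTGF in rat heart cells, had 2663, 2229 and 2431 in Fertile against 2485, 2598 and 2532 in Sub-fertile libraries. miR-30b-5p, from the neighbourhood of miR-30d, had 1572, 1394 and 1525 in Fertile against 1424, 1307 and 1488 in Sub-fertile libraries. For both strands the groups overlapped. In Sub-fertile libraries their coefficients of variation were 2.23% and 6.51%, lower than for the other 3 5p strands.

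Among the 3p strands, miR-30a-3p was the most abundant, at 1783, 1711 and 1529 in Fertile against 2004, 1805 and 1364 in Sub-fertile libraries. miR-30e-3p, which represses the NF-kB inhibitor NFKBIA in human glioma cells, had 1372, 1582 and 1355 in Fertile against 1536, 1773 and 1691 in Sub-fertile libraries. miR-30d-3p was scarce, at 38.7, 74.0 and 48.7 in Fertile against 68.7, 57.2 and 67.9 in Sub-fertile libraries. It rested on 88 counts in the 3 Fertile and 64 in the 3 Sub-fertile libraries, so its level is the least precise of the family. For all 3 of these strands the groups overlapped.

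**Figure D1:**
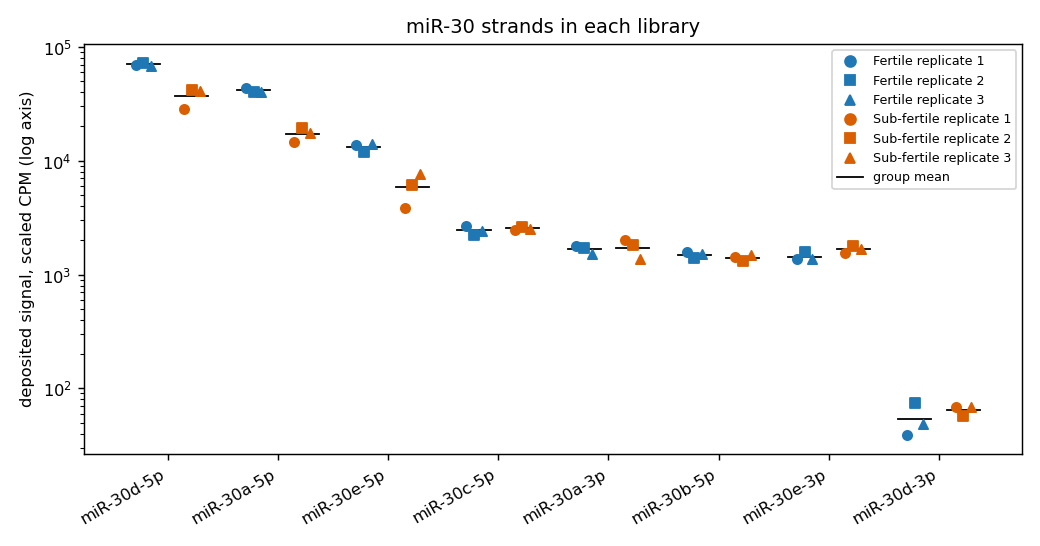
Deposited signal (scaled CPM, log axis) of the 8 miR-30 strands, with 1 symbol per library and a line at each group mean (n = 3). The groups are apart for miR-30d-5p, miR-30a-5p and miR-30e-5p and overlap for the other 5 strands.

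On the scale of log2(value + 1), Sub-fertile minus Fertile, the differences were -1.27 (SE 0.17) for miR-30a-5p, -1.23 (SE 0.26) for miR-30e-5p and -0.94 (SE 0.19) for miR-30d-5p. These correspond to levels 2.42, 2.34 and 1.91 times as high in Fertile vesicles. For the other strands they were -0.09 (SE 0.17) for miR-30b-5p, 0.06 (SE 0.17) for miR-30c-5p, 0.03 (SE 0.20) for miR-30a-3p, 0.22 (SE 0.18) for miR-30e-3p and 0.31 (SE 0.39) for miR-30d-3p. Signs so close to 0 are not directions, and those of miR-30b-5p, miR-30c-5p and miR-30a-3p flipped under other scalings or with a library left out. The median difference of the 5 members' 5p strands was -0.94 and that of the 3 members' 3p strands 0.22, beside -0.09 and -0.14 over all 123 tested 5p and 111 tested 3p strands.

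Of the 8 members, 3 passed an adjusted p of 0.05 in the fit over all 234 tested miRNAs (limma, Benjamini-Hochberg), all of them lower in Sub-fertile. The count was 0 for limma without a trend and 0 with a replicate block (limma, 3 at an unadjusted p under 0.05 in each), and 2 with quantile normalization. Over the whole table, 2.56% of tested miRNAs were called lower, 6 in all with 2 higher. With quantile normalization the split was 2 lower and 3 higher, and with DESeq2 7 lower and 10 higher. The same 3 members had all Sub-fertile libraries below all Fertile ones, as had 16.2% of tested miRNAs. Among the 65 tested miRNAs with a mean of at least 1000, which include these 3, 18 lay below in this way. Since this contrast chose the family, nothing is read from these counts. All 3 were also called without Sub-fertile replicate 1, when 27 miRNAs in the table were called lower, and miR-30a-5p alone remained called without any 1 Fertile library or without Sub-fertile replicate 2. In bulk vesicle RNA, fewer vesicles of a source and less of a miRNA per vesicle cannot be told apart.

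The 3 strands ranked lower by their difference among abundant miRNAs than among all tested ones. By log2 difference miR-30a-5p, miR-30e-5p and miR-30d-5p were the 18th, 21st and 34th lowest of 234. Among the 65 miRNAs with a mean of at least 1000 they were the 3rd, 4th and 5th lowest, and 4 of these 65 had a difference of -1 or less. The median over all tested miRNAs was -0.10. Relative to it, the 3 strands stood at -1.18, -1.13 and -0.84.

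**Figure D2:**
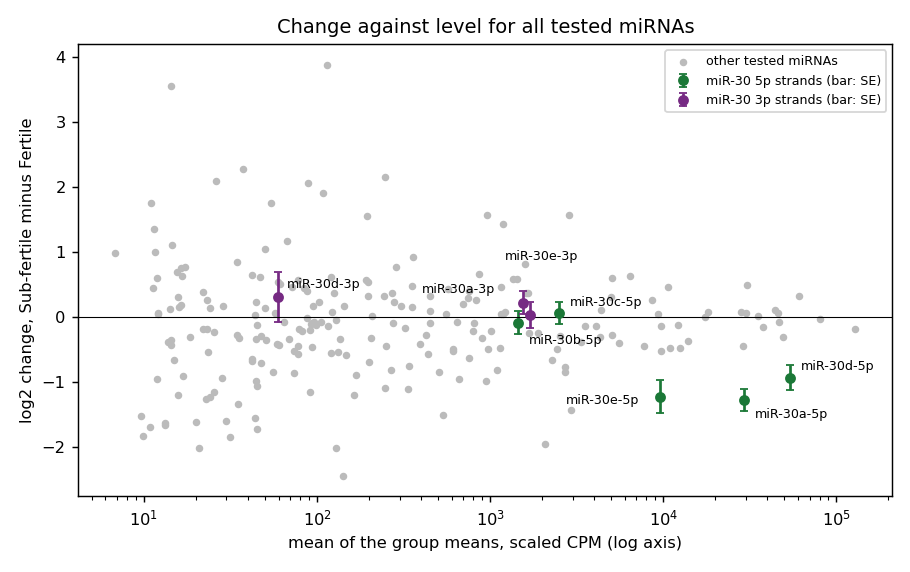
Difference in log2(value + 1), Sub-fertile minus Fertile, against the mean of the group means (scaled CPM, log axis) for 234 tested miRNAs, with miR-30 5p and 3p strands coloured and bars for their SE. miR-30d-5p, miR-30a-5p and miR-30e-5p lie well below 0 at the abundant end, while miR-30b-5p, miR-30c-5p and the 3p strands lie near 0.

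The 5p total of the family was lower in Sub-fertile libraries, as were those 3 strands. They make up nearly all of it, so the total restates the values on which the family was chosen. The 5 members' 5p strands, which share a seed, together held 131102, 128478 and 126819 in Fertile against 50830, 71806 and 70159 in Sub-fertile libraries. This was 12.7%, 12.3% and 12.1% of the library in Fertile against 6.29%, 7.26% and 6.33% in Sub-fertile. The share of a library does not depend on the scaling factors, and by that measure the 3 Sub-fertile libraries lay within 1 percentage point of each other. The log2 difference of the sum was -1.02, and it was -0.86 without Sub-fertile replicate 1. The 3 measured 3p strands summed to 3165 ± 218 and 3456 ± 288 (SD, n = 3 each), with overlapping groups.

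miR-30d-5p was the largest part of the 5p pool in every library. It made up 54.5% ± 2.02 of the pool in Fertile against 57.7% ± 1.57 in Sub-fertile libraries, with overlapping groups. miR-30a-5p went from 32.2% ± 1.17 to 27.0% ± 1.99, and miR-30e-5p from 10.3% ± 0.909 to 9.005% ± 1.72 (SD, n = 3 each). miR-30b-5p and miR-30c-5p together held 3.06% ± 0.212 in Fertile against 6.29% ± 1.23 in Sub-fertile libraries. The level of this pair itself was 3937 ± 307 and 3944 ± 65.0.

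**Figure D3:**
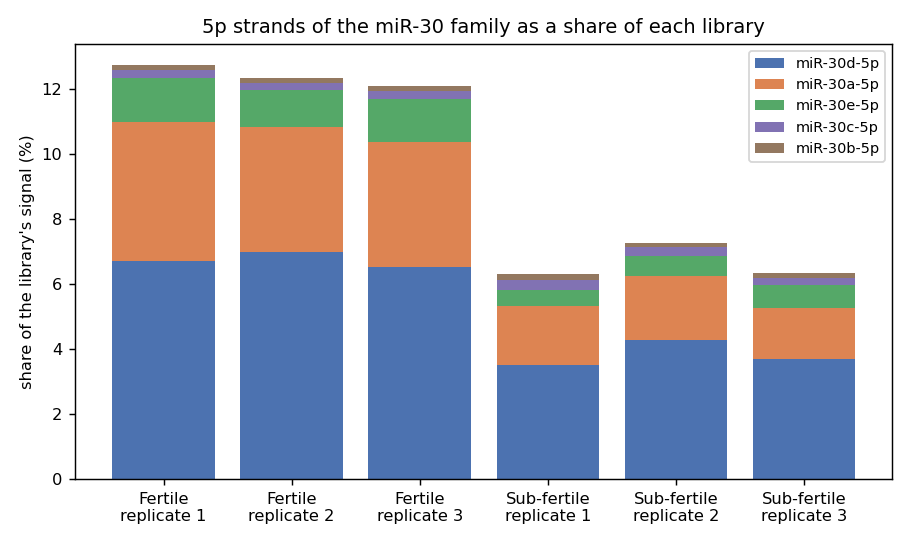
Share of each library's total signal (%) held by the 5p strands of miR-30d, miR-30a, miR-30e, miR-30c and miR-30b, stacked by library. The bars reach 12.1% to 12.7% in Fertile against 6.29% to 7.26% in Sub-fertile libraries, and miR-30d-5p is the largest part of each.

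Ratios within a library are free of the scaling between libraries, and they differed between the branches of the family. This difference was part of how the family was chosen, so the ratios are descriptive. The summed level of miR-30a-5p, miR-30d-5p and miR-30e-5p over that of miR-30b-5p and miR-30c-5p was 29.96, 34.5 and 31.1 in Fertile against 12.0, 17.4 and 16.5 in Sub-fertile replicates 1 to 3. Reads misassigned among the near-identical miR-30a, miR-30d and miR-30e would not alter this sum. The rule by which reads went to one or another member was not stated.

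Genomic neighbours were compared in the same way. The ratio of miR-30d-5p to miR-30b-5p, whose genes are adjacent, was 44.0, 52.2 and 44.9 in Fertile against 20.0, 32.3 and 27.6 in Sub-fertile libraries. miR-30e-5p over miR-30c-5p was 5.19, 5.36 and 5.77 in Fertile against 1.55, 2.36 and 3.02 in Sub-fertile libraries. The third neighbourhood could be followed through miR-30c-2-3p, the 3p strand of the gene next to MIR30A. Levels of miR-30c-2-3p were 97.1 ± 12.2 in Fertile against 90.8 ± 6.25 in Sub-fertile (SD, n = 3 each), and miR-30a-5p over this strand went from 432 ± 62.2 to 190 ± 18.8. Each of these ratios was lower in all 3 Sub-fertile libraries than in any Fertile one. The last of them rested on 14 counts of miR-30c-2-3p in Sub-fertile replicate 1. The family was chosen on lower a, d and e 5p strands beside relatives without that difference, so these ratios too are descriptive.

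Within the a, d and e branch the group means of the ratios lay closer together than between the branches. miR-30a-5p over miR-30e-5p was 3.14 ± 0.242 in Fertile against 3.10 ± 0.773 in Sub-fertile libraries (SD, n = 3 each). It varied within the Sub-fertile group, at 3.82, 3.19 and 2.28 in replicates 1 to 3. miR-30d-5p over miR-30e-5p was 5.33 ± 0.672 in Fertile against 6.54 ± 1.06 in Sub-fertile libraries, with overlapping groups. miR-30d-5p over miR-30a-5p was 1.69 ± 0.121 and 2.15 ± 0.205, without overlap between the groups. In the other branch, miR-30c-5p over miR-30b-5p was 1.63 ± 0.0566 and 1.81 ± 0.154, although neither strand alone separated the groups. By library it was 1.69, 1.60 and 1.59 in Fertile against 1.75, 1.99 and 1.70 in Sub-fertile replicates 1 to 3. The groups were thus only narrowly apart, and the value of Sub-fertile replicate 1 rested on 398 and 228 counts.

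The arms of each hairpin were then set against each other. In the miR-30a hairpin the 3p strand made up 3.90%, 4.09% and 3.65% of both arms in Fertile libraries. In Sub-fertile replicates 1 to 3 it made up 12.0%, 8.44% and 7.24%. The 95% Wilson intervals, which cover counting error only, were 3.38% to 4.37% over the Fertile libraries and 6.76% to 13.3% over the Sub-fertile ones.

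In the miR-30e hairpin the 3p strand was more prominent. It held 9.03%, 11.7% and 8.81% in Fertile against 28.6%, 22.4% and 18.1% in Sub-fertile libraries. The Wilson intervals of the 2 groups were again apart, with the highest Fertile bound at 12.5% and the lowest Sub-fertile bound at 17.1%.

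The miR-30d hairpin was nearly exclusive to its 5p arm. Its 3p share was 0.0559%, 0.101% and 0.0710% in Fertile against 0.241%, 0.135% and 0.165% in Sub-fertile libraries. Here the intervals overlapped: Fertile replicate 2 reached 0.139%, above the 0.135% of Sub-fertile replicate 2. That library held 14 counts of the strand.

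**Figure D4:**
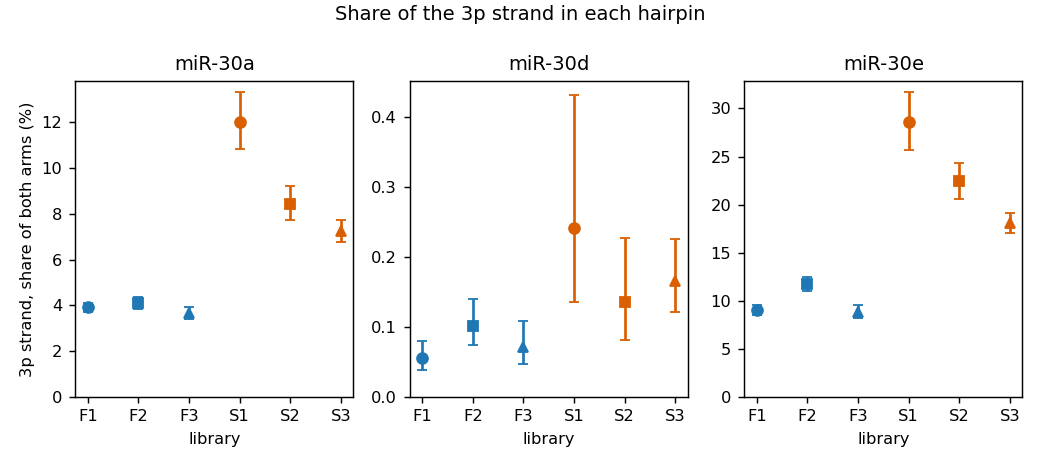
Share of the 3p strand in the counts of both arms (%, axis from 0 and scaled per panel) for the miR-30a, miR-30d and miR-30e hairpins, with F1 to F3 for the Fertile and S1 to S3 for the Sub-fertile replicates and bars for 95% Wilson intervals. All Sub-fertile points lie above all Fertile points in each hairpin, with intervals that overlap only for miR-30d.

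As log2 ratios of 5p to 3p, the means went from 4.63 to 3.33 for miR-30a, from 3.21 to 1.76 for miR-30e and from 10.4 to 9.13 for miR-30d. The differences were -1.30 (SE 0.28), -1.44 (SE 0.31) and -1.24 (SE 0.45). Over the 57 hairpins with both arms at 10 or more in at least 3 libraries, the median difference was 0.10, and the 3 miR-30 hairpins were the 3rd, 1st and 4th lowest. All 3 had Sub-fertile ratios below every Fertile ratio, as had 8.77% of the 57. With limma over the 57 hairpins, 2 of these 3 (miR-30a and miR-30e) passed an adjusted p of 0.05, which are all of the 3.51% called lower. The other 2 hairpins called were miR-34b and miR-196a, in the opposite direction. With a pseudocount of 0.5 in place of 1, or with a replicate block, 0 hairpins passed (limma, 10 at an unadjusted p under 0.05 in each), and with a pseudocount of 5 there were 6. With any 1 library left out, 0 hairpins passed (limma, 9 to 16 at an unadjusted p under 0.05), and the 3 miR-30 differences stayed between -1.65 and -1.01. The arms were part of how the family was chosen, so these values too are descriptive.

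Library depth and arm shares were set side by side. In the Sub-fertile group the 3p share of miR-30a and miR-30e was highest in replicate 1, the shallowest library with 129387 counts, and lowest in replicate 3, the deepest of the group with 636929. For miR-30d the lowest Sub-fertile share was in replicate 2. In the Fertile group the shallowest library, replicate 3 with 453675 counts, had the lowest 3p share of miR-30a and miR-30e (3.65% and 8.81%), below the deepest, replicate 1 with 772619 counts (3.90% and 9.03%). The part of depth was not tested. Without Sub-fertile replicate 1 the log2 differences in level were -1.16, -0.75 and -0.95 for miR-30a-5p, miR-30d-5p and miR-30e-5p.

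Markers of other sources were measured in the same libraries. The summed level of 8 leukocyte miRNAs was 1076 to 1379 in Fertile against 1483 to 1873 in Sub-fertile libraries. Of these 8, 1 was called higher (limma), miR-146a-5p, with a log2 difference of 2.15 (SE 0.33) and means of 92.3 in Fertile and 400 in Sub-fertile. miR-146b-5p, which led the list, had -0.28 (SE 0.22), and the median of the list was 0.30. The summed level of 7 striated muscle miRNAs was 13.9 to 76.0 in Fertile against 206 to 278 in Sub-fertile libraries. Of 3 tested, 1 was called higher, miR-206-3p (3.89, SE 0.49), with means of 15.3 in Fertile and 215 in Sub-fertile. The groups overlapped for miR-499-5p and for miR-1-3p, whose means were 18.3 in Fertile and 12.7 in Sub-fertile. The remaining 4 of 7 were at 0 throughout (miR-133a-3p, miR-133b-3p, miR-208a-3p and miR-208b-3p). Over all 234 tested miRNAs, miR-146a-5p and miR-206-3p were the only ones called higher. The part of these sources in the miR-30 differences was not tested. The sums of the other lists overlapped between groups: epithelial (117435 to 124184 in Fertile, 97888 to 153852 in Sub-fertile), testis and multiciliated (1752 to 2443 and 1790 to 17041), testis X-linked (7924 to 10226 and 7094 to 13722), erythroid (12.0 to 37.1 and 6.24 to 20.4, with miR-144-3p and miR-144-5p at 0) and stromal (105 to 165 and 127 to 244, with miR-145-5p, miR-145-3p and miR-214-3p at 0). In these 5 lists 0 members were called in either direction (limma), with 6, 5, 3, 1 and 2 members tested in the order given. For miR-449a-5p (testis and multiciliated, log2 difference 1.43, SE 0.58) all Sub-fertile libraries lay above all Fertile ones. The same held for miR-143-3p (stromal, 3.56, SE 1.04), which was near 0 in Fertile, with a mean of 1.09. Of all 234 tested miRNAs, 22 lay above in this way. The other tested members of these lists overlapped between groups. The epithelial list was the exception, with a split and a median log2 difference of -0.27. For miR-375-3p, miR-182-5p and miR-183-5p all Sub-fertile libraries lay below all Fertile ones, as for 16.2% of all tested miRNAs. Of the 65 with a mean of at least 1000, which include these 3, it held for 18. For miR-200c-3p, miR-141-3p and miR-205-5p the groups overlapped.

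The order of the members within a library is given as a description, since it was read from the same 6 libraries. From the highest mean log2 level it ran miR-30d-5p, miR-30a-5p, miR-30e-5p, miR-30c-5p, miR-30a-3p, miR-30e-3p, miR-30b-5p and miR-30d-3p. Of the 7 neighbouring pairs in this order, 5 held in 6 of 6 libraries.

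The steps at the top were 1.90-fold from miR-30d-5p to miR-30a-5p (log2 difference 0.93 ± 0.21, SD, n = 6 libraries), 3.08-fold from miR-30a-5p to miR-30e-5p and 3.48-fold from miR-30e-5p to miR-30c-5p. The last of these varied most between libraries (log2 difference 1.80 ± 0.77, SD). It joins miR-30e-5p, whose groups did not overlap, to miR-30c-5p, whose groups did. miR-30c-5p exceeded miR-30a-3p 1.47-fold, and the largest step, 25.1-fold, was from miR-30b-5p down to miR-30d-3p.

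Members in the middle did not differ beyond their spread. miR-30a-3p exceeded miR-30e-3p in 5 of 6 libraries by a log2 difference of 0.13 ± 0.26 (SD). miR-30e-3p and miR-30b-5p differed by 0.09 ± 0.24 (SD), with miR-30e-3p higher in all 3 Sub-fertile libraries and in 1 of 3 Fertile ones. The order of group means was otherwise the same in both groups.

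The miR-30 strands outside the 8 were rare. miR-30b-3p had 8 counts over the 3 Fertile and 2 over the 3 Sub-fertile libraries, and miR-30c-3p had 10 and 5, both too few for the test. miR-30c-2-3p, with 162 and 88 counts, had a log2 difference of -0.09 (SE 0.30). miR-30c-5p stood 25.4 ± 3.79 times as high as miR-30c-2-3p in Fertile against 28.0 ± 1.35 times in Sub-fertile libraries (SD, n = 3 each), with overlapping groups. This ratio mixes both miR-30c genes on its 5p side. miR-384-5p, which shares the miR-30 seed in mammals, had 2 counts in Sub-fertile replicate 2 and 0 elsewhere, and miR-384-3p had 0 in all 6 libraries.

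Profiles over the 6 libraries were compared by the root mean square difference of log2 values centred on each miRNA's mean, as a description. These profiles hold the group difference on which the members were chosen, so distances between members are not independent of that choice. The strands nearest to miR-30a-5p among 233 others were miR-30d-5p (0.196) and miR-30e-5p (0.228), and the nearest miRNAs outside the family were miR-502a-3p (0.233), miR-676-3p (0.241), miR-500-3p (0.258), miR-501-3p (0.259) and miR-660-5p (0.271). Its own hairpin partner miR-30a-3p came 100th, at 0.695. For miR-30c-5p the nearest were miR-29c-3p (0.101), miR-30b-5p (0.106), miR-15a-5p (0.110), miR-128a-3p (0.119), miR-361-5p (0.121) and let-7d-5p (0.121). miR-30e-3p and miR-30a-3p were 13th and 19th from miR-30c-5p, ahead of all 3 strands of the a, d and e branch, which came 120th or later.

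The spread within the Fertile group was smallest for the 2 most abundant members. The coefficient of variation was 3.35% for miR-30d-5p and 5.10% for miR-30a-5p, and 6.16% to 8.91% for the other 5 members with a mean of at least 1000, beside a median of 8.74% over the 65 miRNAs at that level. In the Sub-fertile group it was 20.5% for miR-30d-5p and 14.3% for miR-30a-5p, beside a median of 23.7%. There miR-30e-5p lay above that median, at 32.7%, and miR-30a-3p below it, at 19.0%. miR-30b-5p, miR-30c-5p and miR-30e-3p had 6.51%, 2.23% and 7.21% in Sub-fertile libraries.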

How the data were processed

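Per the labels' protocols, vesicles were isolated by ultracentrifugation and size exclusion chromatography, and small RNA libraries were made with a QIAseq kit. The submitters' processing notes name bcl2fastq, Bowtie2 2.2.2, DESeq2 and OryCun2.0, with no role or order. The deposited signal, named CPM by the authors, was a whole multiple of 1 count for 100% of values (largest distance 1.46e-11), and its scaling equals TMM factors (an inference). No source used here states whether molecular identifiers were counted. Values were used as deposited.

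Differences were fitted with limma 3.58.1 (R 4.3.3; empirical Bayes with a trend) on log2(value + 1) for 234 of 577 miRNAs with at least 10 in at least 3 of 6 libraries, and likewise on arm ratios. edgeR 4.0.16 and DESeq2 1.42.0 on recovered counts were alternatives; edgeR called 7 miRNAs. Scripts were tested on simulated data. Replicates of a group were no copies of each other (lowest chi-square per degree of freedom 20.3). The limma p-values set a group difference against the spread between these libraries, moderated across miRNAs. What that spread stands for is open, as the labels do not say whether each library is 1 male. Members, lists and tests were chosen with earlier results of these data known. All 8 members, other miR-30 strands, the 5 nearest profiles and called hairpins are named; seeds were not matched to sequences here. The planned test of the order of members is not given, since the order came from the same libraries.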

Additional observations from a re-analysis of the deposited data

How the results depend on the processing

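The count of 3 members called kept its value under pseudocounts of 0.5 and 5, no filter, a filter of 100 (which leaves 7 members), plain CPM, median-of-ratios scaling, scaling computed without the members, edgeR and DESeq2, and was 2 with quantile normalization. It was 0 for limma without a trend and 0 with a replicate block (limma, 3 at an unadjusted p under 0.05 in each), and 1 to 3 with 1 library left out. Over all tested miRNAs, 5 to 7 were called lower in the settings that kept 3, but 11 of 131 with the filter of 100. That number was 2 with quantile normalization and 1 to 27 with 1 library left out. The members were chosen on this same contrast, so a kept count supports nothing further. Hairpins called went from 4 to 0 with a pseudocount of 0.5 and 0 with a replicate block (limma; 10 at an unadjusted p under 0.05 in each), and 0 to 0 with 1 library left out. They numbered 6 with a pseudocount of 5 and 4 with a filter of 100. The cause was not tested. Deviations of same-numbered libraries from their group means correlated at 0.05, -0.12 and 0.10. These values come from few libraries and from miRNAs that are not independent, so they do not settle whether the numbers pair libraries.

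The difference of miR-30b-5p turned to 0.027 under plain CPM, 0.036 under edgeR and 0.0042 under DESeq2, and that of miR-30a-3p to -0.039 under quantile normalization and -0.091 to 0.19 with 1 library left out. For miR-30c-5p that range was -0.0036 to 0.12. Plain CPM, edgeR and DESeq2 moved the median of all tested miRNAs by 0.12, 0.17 and 0.16. Depth limits miR-30d-3p most, with 11 counts in Sub-fertile replicate 1.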
